A study of Mus musculus with 5 samples.

Results

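Platelet cytoskeleton, signalling and eicosanoid genes were examined in whole blood of mice through the probe sets whose platform annotation gave exactly 1 gene symbol among 9 listed genes. The rule found 10 of the 45101 probe sets on the array. They stood for 8 of the 9 genes, out of 18194 genes with such a probe set: Tubb1, Myl9, P2ry12, Rgs18, Rgs10, Nrgn, Tbxas1 and Alox12. No probe set carried the symbol Ptgs1 alone, so Ptgs1 was not analysed here. Rgs18 and Alox12 had 2 probe sets each. The blood came from adult female mice of 2 first-generation crosses that share the FVB/NJ parent strain. The other parent strain was AKR/J in 2 samples (AKRxFVB F1, arrays 1 and 2) and DBA/2J in 3 samples (DBAxFVB F1, arrays 1 to 3), and the labels give neither group a treatment beyond the anaesthesia before cardiac puncture. The study asked which blood genes differ at baseline between these genotypes. Nothing in the labels says whether each array stands for its own animal, so p-values reflect only how far these samples differ among themselves, which can be technical.

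Platelets are anucleate fragments of megakaryocytes that carry RNA inherited from them. Their disc shape rests on a ring of microtubules under the membrane, and they change shape and contract through non-muscle myosin once ADP, thromboxane or thrombin receptors are engaged. G proteins carry these signals and are switched off by RGS proteins, while platelet cyclooxygenase and thromboxane synthase turn arachidonic acid into thromboxane, and a platelet lipoxygenase turns it into hydroxy fatty acids. Whole blood RNA holds these transcripts beside those of red cell precursors and white cells. In such bulk RNA, fewer platelets and less RNA per platelet cannot be told apart.

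The values were log2 expression, 1 per probe set and array, and they can be compared between arrays for 1 probe set but not between probe sets. Some markers of blood cells, picked here for their role, read well above the array medians of 2.49 to 2.54. Alas2, the first enzyme of heme synthesis in red cells, read 13.45 to 13.59 on the 5 arrays. The platelet chemokine gene Pf4 read 8.53 to 11.30, the neutrophil gene S100a8 6.23 to 7.43 and the B cell gene Ms4a1 5.16 to 8.03. Others, singled out after their values were seen, read near those medians. Hba-a1 of red cells read 2.34 to 2.68 and Cxcr2 of neutrophils 2.43 to 2.83. Readings of single genes thus do not measure how far a cell type was represented. DBAxFVB F1 array 3 stood apart: the median of its 18 hybridisation controls, which report spiked-in labelled transcripts, was 7.99, against 10.01 to 10.12 elsewhere. Its 3-prime minus 5-prime difference for Gapdh, a sign of RNA quality, was the highest at 1.33, against 0.58 to 1.04 elsewhere, while its median over non-control probe sets, 2.55, lay close to the 2.49 to 2.53 of the other arrays. Differences between the crosses are given with and without this array for the members and for the named genes of each list.

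The platelet genes moved together from array to array, and the arrays of 1 cross differed more than the crosses did. Of the 10 probe sets, 9 had their highest value on AKRxFVB F1 array 2 and their lowest on DBAxFVB F1 array 3, against 8.32% of all tested. The AKRxFVB F1 pair differed by 1.46-fold to 3.29-fold, and DBAxFVB F1 array 3 lay 1.47-fold to 7.50-fold under the geometric mean of arrays 1 and 2 of its cross. Between the crosses no probe set passed the limma test, and in all 10 the values of the crosses overlapped (28.9% of all tested probe sets did not overlap).

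Tubb1 encodes the beta tubulin of the platelet microtubule ring. It read 8.37 and 9.43 in AKRxFVB F1, then 9.10, 9.10 and 6.84 in DBAxFVB F1. DBAxFVB F1 arrays 1 and 2 lay between both AKRxFVB F1 arrays, and array 3 lay below all. The AKRxFVB F1 mean was 8.90 ± 0.75 (SD, n = 2) and the DBAxFVB F1 mean 8.35 ± 1.31 (SD, n = 3). They differed by -0.55 ± 0.73 (SE; limma adjusted p = 0.812), and without DBAxFVB F1 array 3 the difference was 0.20.

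Myl9 encodes the regulatory light chain of myosin II, whose phosphorylation drives contraction in platelets and in smooth muscle. It read 6.57 and 7.12 in AKRxFVB F1 and 6.65, 6.88 and 5.20 in DBAxFVB F1. Again only array 3 of DBAxFVB F1 lay outside the range of the other cross. The difference was -0.60 ± 0.52 (SE; limma adjusted p = 0.717), the smallest p of the 10 probe sets, and -0.07 without that array. Since Myl9 is also a smooth muscle gene, markers of that tissue were read beside it. Of 10 smooth muscle markers 8 were above the level filter and none passed the test. The largest differences were those of Cnn1 (0.56 ± 0.20), Lmod1 (0.42 ± 0.35) and Des (0.25 ± 0.26), against 0.45, 0.66 and 0.22 without that array. Picked for their role, Acta2, the smooth muscle actin, read 3.38 to 3.51 on the 5 arrays and Myh11, its myosin heavy chain, 3.50 to 4.22. The summed linear signal of the 8 tested smooth muscle markers was 83.6 to 85.4 in AKRxFVB F1 and 90.4 to 109 in DBAxFVB F1. On DBAxFVB F1 array 3, where Myl9 was lowest, the list's median lay at -0.07 from its mean over the arrays. But the list was dim, with a median level of 3.39, so a fall had little room to show. All tested probe sets at a mean of 3 to 4 shifted there by a median of 0.03 from arrays 1 and 2. The part of smooth muscle in the Myl9 signal was not tested.

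P2ry12 encodes the Gi-coupled ADP receptor that clopidogrel blocks. Its values were 7.24 and 8.75 in AKRxFVB F1 and 8.11, 8.09 and 5.60 in DBAxFVB F1. The AKRxFVB F1 arrays differed by 2.85-fold, and DBAxFVB F1 array 3 was 5.64-fold under the other arrays of its cross. The difference between the crosses, -0.73 ± 0.82 (SE; limma adjusted p = 0.773), was smaller than the SD within either cross, 1.07 (n = 2) and 1.44 (n = 3), and was 0.10 without DBAxFVB F1 array 3.

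Rgs18, an RGS protein of megakaryocytes and platelets that shuts off Gi and Gq signals, had the widest swings. Its probe set 1420398_at read 8.45 and 10.12 in AKRxFVB F1 and 9.99, 9.58 and 6.88 in DBAxFVB F1. The second, 1449856_at, read 8.12 and 9.84, then 9.34, 8.92 and 6.35. Both probe sets thus placed the 5 arrays in the same order, and their profiles, each centred on its own mean, differed by a root mean square of 0.16 and at most 0.20. The span from the highest to the lowest array was 9.49-fold and 11.2-fold, a span reached by 0.111% and 0.0711% of all tested probe sets. The differences between the crosses were -0.47 ± 0.94 and -0.77 ± 0.91 (SE; limma adjusted p = 0.879 and 0.785), and without DBAxFVB F1 array 3 they were 0.50 and 0.15.

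Rgs10, a smaller RGS protein that acts on Gi subunits and is also found in immune cells, read 7.59 and 8.85 in AKRxFVB F1 and 8.35, 8.13 and 6.17 in DBAxFVB F1. Nrgn encodes neurogranin, a calmodulin-binding protein best known from neurons, and read 8.66 and 9.96, then 9.46, 9.18 and 7.56. Both genes kept the array order of Rgs18. Their differences were -0.67 ± 0.70 and -0.58 ± 0.65 (SE; limma adjusted p = 0.758 and 0.777), against 0.02 for Rgs10 and 0.01 for Nrgn without DBAxFVB F1 array 3.

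The probe sets of the eicosanoid enzymes differed in how closely they followed the other members. Against the mean centred profile of the other genes, Alox12 1422699_at lay at a root mean square of 0.07, the smallest of all member probe sets. Alox12 1422700_at lay at 0.42 and Tbxas1 at 0.68, while those of Rgs18 lay at 0.46 and 0.45. For Alox12, the platelet-type arachidonate lipoxygenase, probe set 1422699_at read 7.01 and 8.19 in AKRxFVB F1 and 7.76, 7.63 and 5.93 in DBAxFVB F1. The dimmer probe set 1422700_at read 2.92 and 4.11, then 4.05, 3.95 and 2.87. Both gave the same array order, but the dimmer one fell less on DBAxFVB F1 array 3, with a gap of 0.67 between the centred profiles there, and its low values lay near the array medians, where the scale has no stated limit of detection. The differences were -0.50 ± 0.63 for the brighter and 0.11 ± 0.44 for the dimmer probe set (SE; limma adjusted p = 0.803 and 0.946). Over all 5 arrays the signs thus differed, but without DBAxFVB F1 array 3 both were higher in DBAxFVB F1, by 0.093 and 0.49.

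Tbxas1, the thromboxane synthase, which monocytes and macrophages also make, read 3.89 and 4.55 in AKRxFVB F1 and 4.59, 4.39 and 3.93 in DBAxFVB F1. It was the only member whose lowest value was not on DBAxFVB F1 array 3, and its arrays spanned 1.62-fold, a span that 35.2% of tested probe sets reached. The difference was 0.08 ± 0.29 (SE; limma adjusted p = 0.940), and 0.27 without that array. On DBAxFVB F1 array 3 Tbxas1 lay 1.30 above the mean centred profile of the other 7 genes. Most monocyte markers did not fall on that array. Against the mean of DBAxFVB F1 arrays 1 and 2, 13 of 17 tested markers were higher there and 4 lower, with a median of 0.35. Singled out after their values were seen, the extremes were Csf1r, the monocyte growth factor receptor, which lay 1.53 higher, and Ms4a6b, which lay lower by -0.86, while the chemokine receptor gene Ccr2 was lower by -0.44. The part of monocytes in the Tbxas1 signal was not tested.

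**Figure D1:**
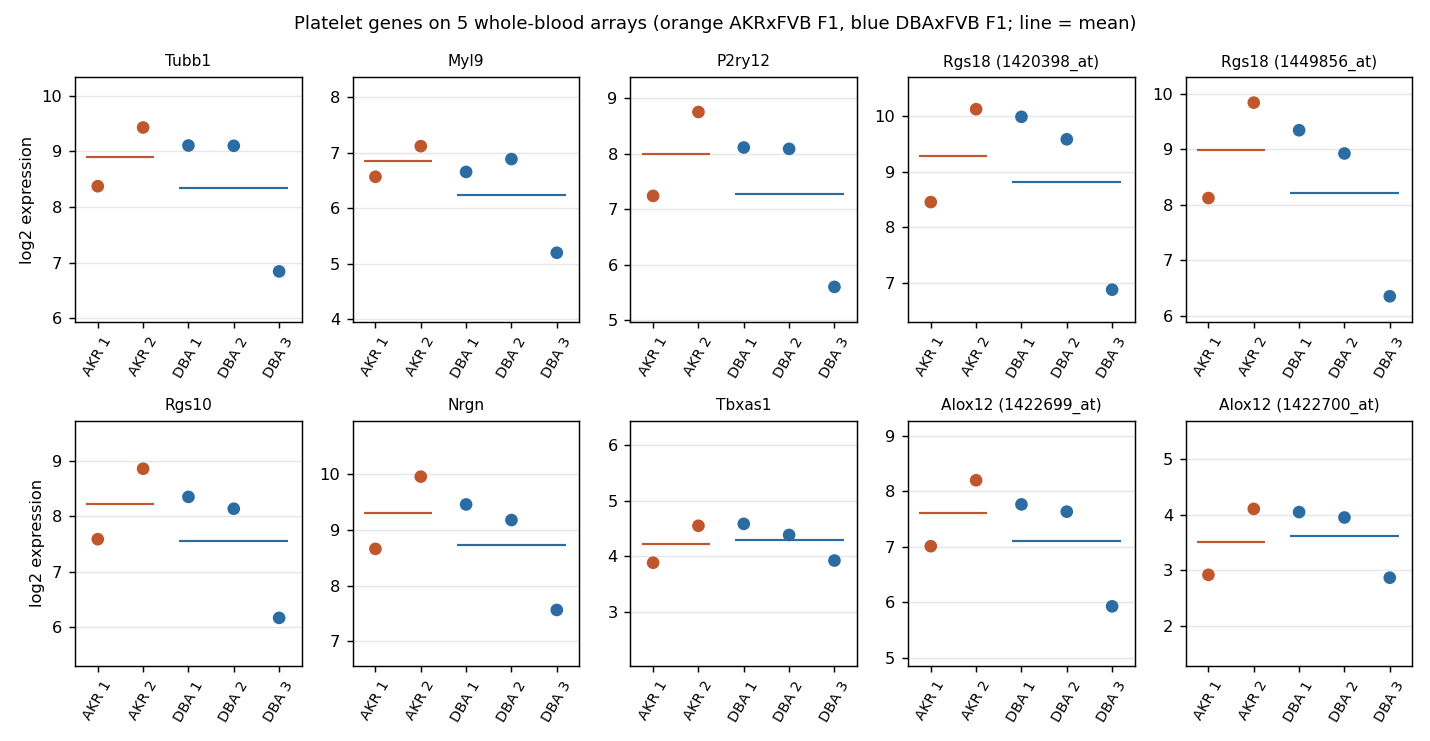
Log2 expression (y axis) of the 10 member probe sets on the 5 arrays (x axis), 1 panel per probe set, with every y axis spanning the same number of log2 units; points are arrays, orange for AKRxFVB F1 and blue for DBAxFVB F1, and lines are group means. In 8 panels the order from high to low is AKRxFVB F1 array 2, DBAxFVB F1 arrays 1 and 2, AKRxFVB F1 array 1 and DBAxFVB F1 array 3; Myl9 and Tbxas1 depart from it.

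Across the table, 8 of the 10 probe sets, which stood for 6 genes, shared 1 order of the arrays: AKRxFVB F1 array 2, DBAxFVB F1 array 1, DBAxFVB F1 array 2, AKRxFVB F1 array 1, DBAxFVB F1 array 3. That order was noticed in these values and not set beforehand, and 2.17% of the 22519 tested probe sets had it. AKRxFVB F1 array 2 was the highest and DBAxFVB F1 array 3 the lowest in 9 member probe sets, as given above. A drop of at least 1 log2 unit on DBAxFVB F1 array 3, from the mean of arrays 1 and 2, was seen in 9 of 10. Over all tested it was seen in 4.04%, but most of those were dimmer than most members. The median shift on that array was -0.69 for probe sets at a mean of 6 to 8 and -1.02 at 8 to 10. Such a drop is thus not particular to the members. The members were chosen as platelet genes, so these counts describe the libraries and are no independent sign of a shared control.

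Promoter sequences are shown for 3 members: Tubb1 and P2ry12, which moved together, and Tbxas1, which departed from them. RefSeq (build GRCm38.p6) gave a start site window for 8 of the 9 listed genes, all but Rgs18. Each line holds the 250 bases before the annotated start, 5′ to 3′ on the gene's strand, with motif matches in capitals.
Tubb1 promoter, chr2:174450345-174450594, plus strand: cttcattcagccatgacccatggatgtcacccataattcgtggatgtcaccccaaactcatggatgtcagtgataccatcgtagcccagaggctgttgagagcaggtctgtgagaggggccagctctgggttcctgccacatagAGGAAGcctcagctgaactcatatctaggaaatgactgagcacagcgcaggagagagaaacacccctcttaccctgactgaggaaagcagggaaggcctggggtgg
P2ry12 promoter, chr3:59262986-59263235, minus strand: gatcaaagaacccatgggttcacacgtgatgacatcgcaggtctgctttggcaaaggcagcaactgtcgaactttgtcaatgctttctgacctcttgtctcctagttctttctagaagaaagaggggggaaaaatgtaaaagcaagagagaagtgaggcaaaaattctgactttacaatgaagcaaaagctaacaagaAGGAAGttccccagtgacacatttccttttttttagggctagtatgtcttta
Tbxas1 promoter, chr6:38918736-38918985, plus strand: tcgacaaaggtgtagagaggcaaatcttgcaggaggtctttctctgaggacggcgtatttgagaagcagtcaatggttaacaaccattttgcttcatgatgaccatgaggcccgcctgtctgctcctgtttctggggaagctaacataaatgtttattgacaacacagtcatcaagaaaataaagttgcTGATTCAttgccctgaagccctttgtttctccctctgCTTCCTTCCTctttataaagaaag
The capitals in Tubb1 and P2ry12 mark the ETS core AGGAAG. In Tbxas1 they mark 2 overlapping matches to its reverse complement, CTTCCT, and a match to TGANTCA, the core that NF-E2 and AP-1 share. These motifs were searched on both strands as factor families known from megakaryocytes. The ETS core was in 4 of 8 member windows (Tubb1, P2ry12, Tbxas1 and Ptgs1) and in 29.5% of 32851 windows of the same length. TGANTCA was in 1 of 8 and in 6.75% of all, and the GATA core AGATAA in 0 of 8 and in 9.99% of all. A match describes letters and is not a site of binding.

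The test between the crosses, which the study's question turns on, called none of these genes. Limma called 0 of 10 member probe sets at an adjusted p below 0.05, against 0% of the 22519 tested, and 0 of 10 at an unadjusted p below 0.05, against 10.4%. The groups did not overlap in 0 of 10, against 28.9% of all tested. The median difference was -0.56 over the members and 0.04 over all tested probe sets. In DBAxFVB F1 8 of 10 were lower, against 43.2%. All 6 tested housekeeping genes were lower too, with a median of -0.73. Most tested probe sets were dimmer than most members, so values over all tested are not of like level. At a mean of 6 to 8 the median difference was -0.44, and at 8 to 10 it was -0.56. Relative to probe sets of like level the median over the members was -0.04. The residual SD of the members within a cross had a median of 1.05 (0.39 to 1.54), against 0.21 over all tested, so the error of each difference was large.

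The direction of the difference hung on single arrays. Without DBAxFVB F1 array 3, 9 of 10 probe sets were higher in DBAxFVB F1, with differences of -0.07 to 0.50 and a median of 0.13. Without AKRxFVB F1 array 2, 7 of 10 were higher and the median was 0.08, whereas without AKRxFVB F1 array 1 all 10 were lower, by a median of -1.16. With DBAxFVB F1 array 3 and AKRxFVB F1 array 1 both left out, a setting added after the data were seen, all 10 were lower by -0.07 to -0.71, and the smallest limma adjusted p was 0.358. Myl9 was the only member that stayed lower with any 1 array left out.

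**Figure D2:**
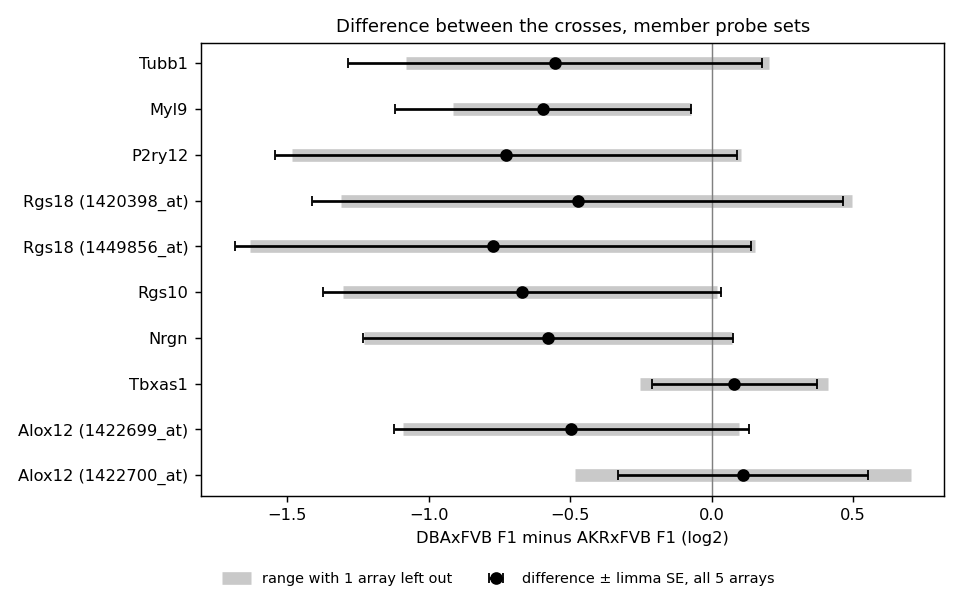
Difference between the crosses (x axis, DBAxFVB F1 minus AKRxFVB F1 in log2) for each member probe set (y axis); points are the limma estimates from all 5 arrays, whiskers 1 moderated standard error, and grey bars the range when 1 array at a time is left out. For 9 of the 10 probe sets the grey bar crosses 0.

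Bright probe sets as a whole were dimmer on DBAxFVB F1 array 3, so the members were read against probe sets of like mean level. Against arrays 1 and 2 of that cross, the median shift there was -0.69 for probe sets at a mean of 6 to 8, and -1.02 for those at 8 to 10. All 10 members lay further down than the median of their level, by -0.50 to -1.88, with Rgs18 and P2ry12 furthest and Tbxas1 least. Within AKRxFVB F1 the 3-prime minus 5-prime difference was higher on array 1 than on array 2, for Gapdh (1.04 and 0.73) and Actb (1.22 and 1.03). The hybridisation controls of both arrays were alike (10.08 and 10.12). The bright probe sets hardly differed, with medians of 0.13 at 6 to 8 and 0.14 at 8 to 10. The members were nonetheless 0.43 to 1.58 above the median of their level on array 2, and their median difference from array 1 was 1.23, against 0.03 over all tested. Read in the same way, the difference between the crosses lay near 0: relative to probe sets of like level its median over the members was -0.04. The part of RNA quality in the differences between arrays was not tested.

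**Figure D3:**
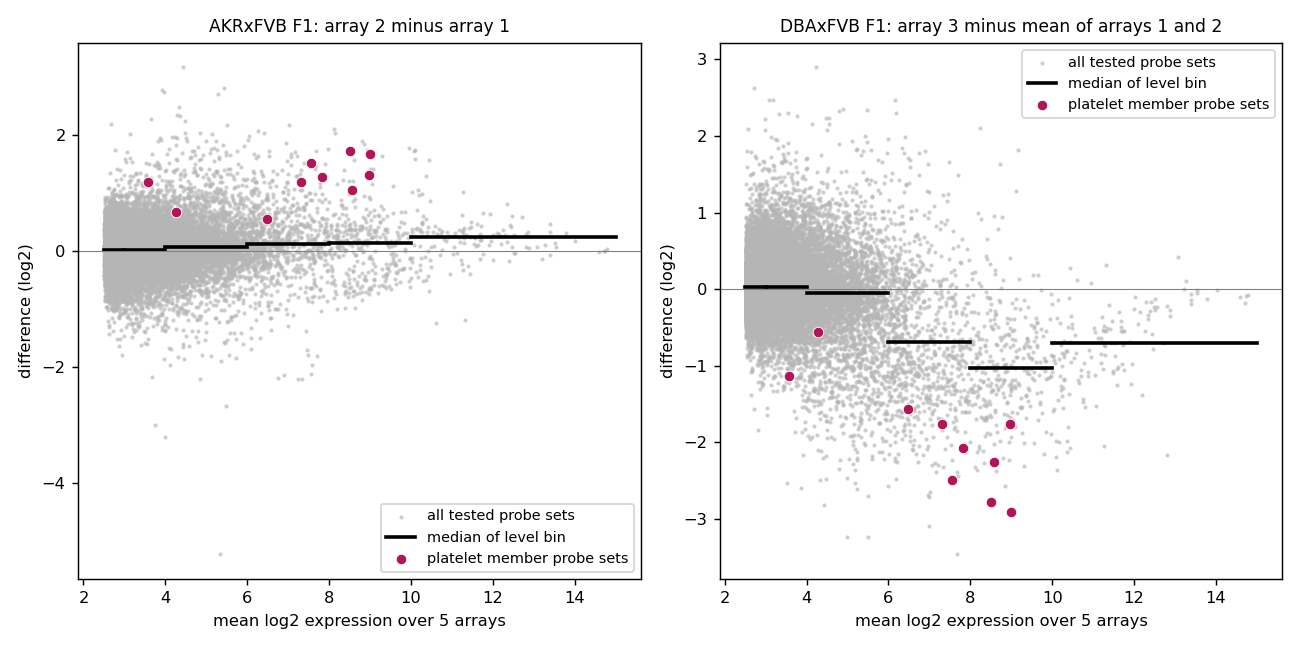
Difference between arrays of 1 cross (y axis, log2) against mean log2 expression over the 5 arrays (x axis) for all tested probe sets (grey), with the median of each level bin (black bars) and the 10 member probe sets (red). In AKRxFVB F1 (left) all members lie above the bars, by 0.43 to 1.58, and in DBAxFVB F1 (right) all lie below them, by -0.50 to -1.88.

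Other platelet genes had a like profile. Of 26 platelet and megakaryocyte markers 23 were tested, 20 of them lower and 3 higher in DBAxFVB F1, none passed (smallest limma adjusted p = 0.533), and 15 had AKRxFVB F1 array 2 highest and DBAxFVB F1 array 3 lowest. Centred on its mean over the arrays, the list had medians of -0.38 and 0.84 in AKRxFVB F1, then 0.35, 0.34 and -1.27 in DBAxFVB F1. The members' own mean profile was -0.27, 0.88, 0.50, 0.38 and -1.48. The summed linear signal of the list was 5842 to 12224 in AKRxFVB F1 and 2571 to 8894 in DBAxFVB F1. The largest differences were those of the tetraspanin Cd9 (-0.67 ± 0.69), the podoplanin receptor Clec1b (-0.67 ± 0.88) and the adhesion receptor subunit Gp1bb (-0.64 ± 0.64). Without DBAxFVB F1 array 3 these became -0.0023, 0.19 and 0.0067, and 5 of the 23 markers were lower and 18 higher. Without AKRxFVB F1 array 2, 6 were lower and 17 higher, and most members were higher under these omissions too. Clec1b read 8.34 and 10.18, then 9.49, 9.40 and 6.88, in the order of Rgs18. Gfi1b, Sparc, Gp6 and Selp, singled out after their values were seen, had their highest value on DBAxFVB F1 array 3, from 3.09 to 4.21 for Gfi1b and 2.94 to 4.13 for Gp6, so these dim markers did not share the profile.

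The cytoskeletal list followed in part. Of 30 genes 29 were tested, 27 lower and 2 higher in DBAxFVB F1, and none passed (smallest limma adjusted p = 0.264). Myh9, the heavy chain of non-muscle myosin that pairs with the light chain of Myl9, read 8.62 and 9.25 in AKRxFVB F1 and 8.64, 8.57 and 6.49 in DBAxFVB F1, a difference of -1.03 ± 0.67 (SE). Another myosin light chain, Myl12b, differed by -1.16 ± 0.32 and the actin-severing protein Cfl1 by -1.05 ± 0.49. Without DBAxFVB F1 array 3 the differences were -0.33 for Myh9, -1.12 for Myl12b and -0.60 for Cfl1, with 24 of the 29 genes lower. Without AKRxFVB F1 array 2, 20 were lower. Myl12b did not have the platelet profile: it read 7.69 and 7.13, then 6.39, 6.18 and 6.19, with no overlap of the crosses. Mylk, the kinase that phosphorylates the light chain, was singled out after its values were seen and read 5.39 and 7.29, then 6.75, 6.27 and 4.35, in the order of Rgs18.

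Receptor signalling genes were split in direction. Of 36 genes 30 were tested, 17 higher and 13 lower in DBAxFVB F1, with a median difference of 0.04. None passed (smallest limma adjusted p = 0.447). The list was dimmer than most members, with a median level of 4.27. Over tested probe sets the median difference was -0.01 at a mean of 4 to 6, against -0.44 at 6 to 8. The part of level in the split was not tested. Rap1b, the small GTPase that activates the platelet integrin downstream of P2ry12, read 8.92 and 10.55 in AKRxFVB F1 and 10.14, 9.22 and 7.67 in DBAxFVB F1, the order of Rgs18, with a difference of -0.72 ± 0.77 (SE) that was -0.053 without DBAxFVB F1 array 3. The tyrosine kinase Syk, which B cells and myeloid cells also express, differed by -0.80 ± 0.39 without that order, and Rasa3, which switches Rap1b off, by -0.59 ± 0.37. With DBAxFVB F1 array 3 left out these were -1.12 for Syk and -0.37 for Rasa3, and 10 of the 30 genes were lower. The second ADP receptor, P2ry1, and the thromboxane receptor, Tbxa2r, were singled out by role after their values were seen. P2ry1 read 3.63 on DBAxFVB F1 array 2 and 2.37 to 2.69 elsewhere, and Tbxa2r read 3.93 and 4.22, then 4.46, 4.63 and 4.71, so neither was lowest on DBAxFVB F1 array 3.

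Other RGS genes lacked the profile of Rgs18 and Rgs10. As a list they were dim, with a median level of 2.98, close to the array medians of 2.49 to 2.54, where a fall has little room to show. Of 19 genes 13 were tested, 8 higher and 5 lower, none passed (smallest limma adjusted p = 0.227), and 1 had AKRxFVB F1 array 2 highest and DBAxFVB F1 array 3 lowest. The list median stayed between -0.05 and 0.07 of its mean on every array. Rgs2 differed most, reading 3.92 and 3.51, then 3.07, 2.90 and 2.92, a difference of -0.76 ± 0.18 (SE), and Rgs16 and Rgs19 differed by 0.31 ± 0.14 and -0.31 ± 0.20. These were -0.73, 0.27 and -0.39 without DBAxFVB F1 array 3.

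The wider eicosanoid list was split as well. Of 32 genes 23 were tested, 12 higher and 11 lower, with a median difference of 0.03, and none passed (smallest limma adjusted p = 0.365). The list was dimmer than most members, with a median level of 3.80. Over tested probe sets the median difference was 0.07 at a mean of 3 to 4, against -0.44 at 6 to 8. The part of level in the split was not tested. Pla2g4a, the cytosolic phospholipase that frees arachidonic acid, read 2.62 and 4.33 in AKRxFVB F1 and 3.16, 3.17 and 2.04 in DBAxFVB F1. It too was highest and lowest on the arrays where the members were. But its value of 2.04 lay under the array medians of 2.49 to 2.54, and that of 2.62 near them. Its difference was -0.68 ± 0.52 (SE). The prostaglandin receptor Ptger4 differed by -0.54 ± 0.17 and Alox5ap, which presents arachidonic acid to the leukocyte lipoxygenase, by -0.51 ± 0.45. The differences were -0.31 for Pla2g4a, -0.45 for Ptger4 and -0.10 for Alox5ap without DBAxFVB F1 array 3.

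As whole lists, white and red cell markers moved less than the platelet genes, although single genes fell with them. The lists also differed in level, with a median of 6.27 for platelet markers. It was 3.65 for neutrophil, 4.11 for monocyte, 4.17 for lymphocyte and 5.23 for erythroid markers. Over all tested probe sets, the median shift on DBAxFVB F1 array 3 was 0.03 at a mean of 3 to 4. It was -0.06 at 4 to 6 and -0.69 at 6 to 8. The part of level in the contrast between lists was not tested. On DBAxFVB F1 array 3 the medians, each list centred on its mean over the arrays, were 0.33 for 11 neutrophil markers, 0.09 for 17 monocyte markers, -0.15 for 15 lymphocyte markers and -0.15 for 13 erythroid markers. On AKRxFVB F1 array 2 they were -0.23, 0.13, 0.23 and 0.19. The summed signal of the erythroid list was 27277 to 33194 in AKRxFVB F1 and 27889 to 31083 in DBAxFVB F1. That linear sum is carried by the brightest genes, singled out by level: Alas2 (mean 13.53), Fech (13.40) and Bpgm (12.30). It thus cannot show how the dimmer erythroid markers moved. On DBAxFVB F1 array 3, 12 of the 13 erythroid markers lay below the mean of arrays 1 and 2, 4 of them by at least 1 log2 unit: Hba-a2 by -2.21, the anion exchanger gene Slc4a1 by -1.39, Epb42 by -1.21 and Car2 by -1.08. All 4 were lowest on that array, as the platelet genes were, whereas Alas2 stayed within 0.14 across the arrays (Epb42, Car2 and Alas2 were singled out after their values were seen).

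No marker of the white and red cell lists passed the limma test. The largest lymphocyte differences were those of the B cell genes Ms4a1 (-1.96 ± 0.45) and Cd79b (-1.43 ± 0.53) and the T cell gene Cd3d (-1.38 ± 0.38). Those of the monocyte list were Ctss (-1.49 ± 0.50), Cybb (-1.37 ± 0.46) and Ms4a6b (-1.27 ± 0.43). Cd3d read 5.51 and 5.68, then 4.94, 4.09 and 3.61, and Ms4a6b read 6.92 and 7.21, then 6.57, 5.60 and 5.22. These genes had AKRxFVB F1 array 2 highest and DBAxFVB F1 array 3 lowest, as 9 member probe sets did, but without overlap of the crosses, and the other 4 were not lowest on that array. Without DBAxFVB F1 array 3 the differences were -2.28 for Ms4a1, -1.72 for Cd79b, -1.08 for Cd3d, -1.85 for Ctss, -1.79 for Cybb and -0.98 for Ms4a6b. Of the erythroid list, Hba-a2 differed by -0.94 ± 0.65, Slc4a1 by -0.42 ± 0.52 and Sptb by -0.34 ± 0.27, against -0.20, 0.043 and -0.31 without that array. Of the neutrophil list, Hdc differed by 0.68 ± 0.38, Csf3r by 0.42 ± 0.17 and S100a8 by -0.40 ± 0.41, against 0.27, 0.41 and -0.64. Heart muscle markers, which a cardiac puncture can bring, were dim, with 10 of 15 tested, a median level of 3.35 and a summed signal of 126 to 161. Myl2 (0.78 ± 0.34), Actc1 (0.75 ± 0.27) and Mb (0.42 ± 0.22) differed most, and without that array by 0.998, 0.76 and 0.28.

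**Figure D4:**
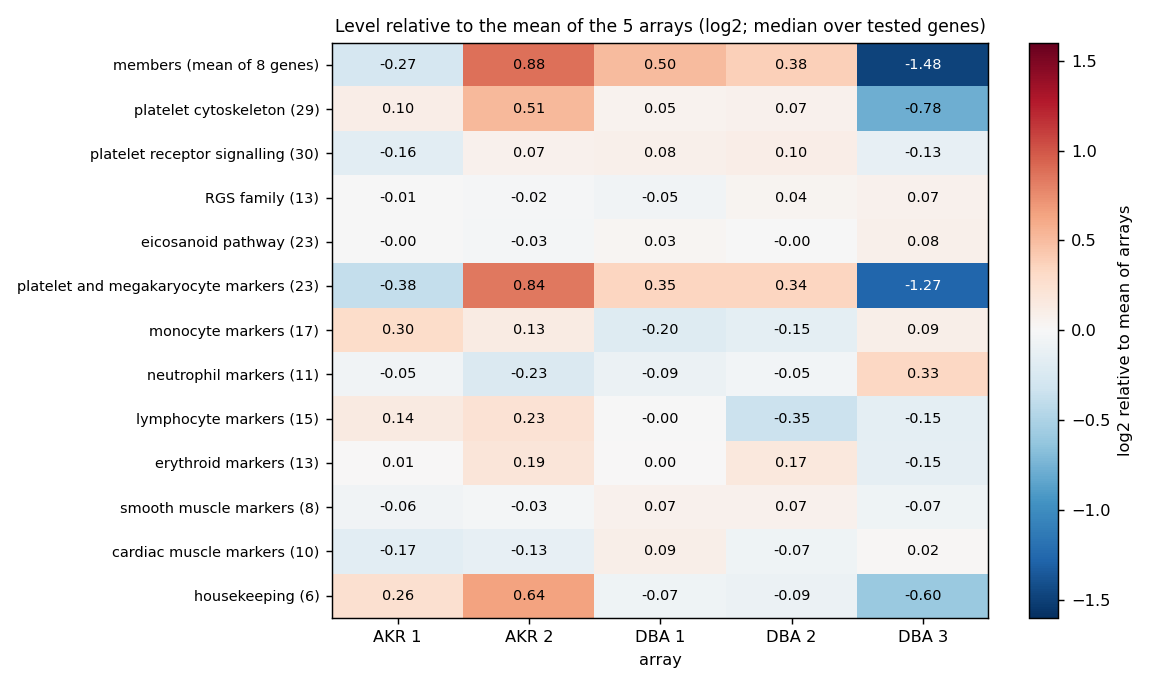
Level of each gene list relative to its mean over the 5 arrays (colour and printed number, log2), with arrays on the x axis and lists, with their number of tested genes, on the y axis; the top line is the mean of the 8 members. The members run from 0.88 on AKRxFVB F1 array 2 to -1.48 on DBAxFVB F1 array 3, and the platelet markers from 0.84 to -1.27, while no white or red cell list goes beyond 0.35 either way. The platelet marker list is also brighter, with a median level of 6.27, against 3.65 to 5.23 for the white and red cell lists.

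The genes whose profile lay nearest to the members' included some known from platelets. Likeness was measured as the root mean square distance over the 5 arrays between a gene's log2 profile, centred on its mean, and the mean centred profile of the 8 members, and all tested probe sets with 1 symbol were compared, 12413 genes. The nearest was Cyb5a, a cytochrome that carries electrons, at a distance of 0.08, against a median of 0.85 over all. It read 7.60 and 8.89 in AKRxFVB F1 and 8.31, 8.17 and 6.37 in DBAxFVB F1. Next came the actin-binding caldesmon gene Cald1, Plek, which encodes the platelet kinase substrate pleckstrin, the immunophilin gene Fkbp1a, Ctla2a, Cd9, the ubiquitin ligase subunit gene Skp1 and Tsc22d1, at distances up to 0.10. Plek read 7.87 and 9.02, then 8.87, 8.58 and 6.67. None differed between the crosses by the limma test, with adjusted p from 0.748 to 0.857. With 5 arrays many genes can lie this close, and nothing follows from it about shared control.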

How the data were processed

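Whole blood RNA (Trizol) went through 2 amplification cycles and biotin labelling, per the labels' protocols, onto 5 Affymetrix arrays. The log2 values were normalized by the authors before they were deposited; that scale was inferred from their range (1.29 to 14.8). The submitters' processing notes name MAS5 and RMA without saying which gave these values, so the background correction is unknown and dim differences may be compressed.

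The table held 45101 probe sets, 64 of them controls. The platform annotation gave 1 symbol to 34958, several to 932 and none to 9211. Probe sets with a mean at or above the median of non-control probe sets (2.51) were tested, 22519 in all, including all 10 members. Limma 3.58.1 in R 4.3.3 (eBayes with a trend, cross as the only term, two-sided) gave differences, standard errors and p-values with Benjamini-Hochberg adjustment over all probe sets tested. The fit was tested on simulated data. An exact permutation test of 2 arrays against 3 cannot reach the threshold and was not run. Where a listed gene had several tested probe sets, the one of highest mean stood for it, and sums of a list are of 2 raised to the log2 value. Named genes were all members, the 3 genes with the largest difference in each list, and the 8 nearest to the members' mean profile; others are said to be singled out or picked for their role. The members and lists were chosen with earlier results of these data known. Alternatives were 3 normalizations, 2 filters, the variance model, array weights, a block for the replicate number, leaving out each array, and other thresholds. Python 3.11.15 with pandas 2.3.3 and matplotlib 3.10.9 prepared tables and plots.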

Additional observations from a re-analysis of the deposited data

How the results depend on the processing

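No member probe set passed the limma test under any alternative. Its smallest adjusted p was 0.358, without AKRxFVB F1 array 1 and DBAxFVB F1 array 3, and 0.640 or more in the other settings. Over all probe sets the count called was 0 in each, with 2337 at an unadjusted p below 0.05. With 1 array left out, the median difference over the members ran from -1.16 to 0.13, and single differences from -1.09 to 0.10 for Alox12 1422699_at, -0.48 to 0.70 for Alox12 1422700_at, -0.92 to -0.07 for Myl9 1452670_at, -1.23 to 0.073 for Nrgn 1423231_at, -1.48 to 0.10 for P2ry12 1431724_a_at, and from -1.30 to 0.020 for Rgs10 1416882_at, -1.31 to 0.50 for Rgs18 1420398_at, -1.63 to 0.15 for Rgs18 1449856_at, -0.25 to 0.41 for Tbxas1 1416827_at, -1.08 to 0.20 for Tubb1 1444214_at. With the replicate number as a block, which leaves DBAxFVB F1 array 3 without weight in the difference, the median was 0.13, and the difference was 0.093 for Alox12 1422699_at, 0.0091 for Nrgn, 0.10 for P2ry12, 0.020 for Rgs10, 0.50 and 0.15 for Rgs18 and 0.20 for Tubb1, all reversed. The labels do not say that equal numbers pair arrays. Deviations from the cross means correlated at -0.26 for the arrays numbered 1 and 0.17 for those numbered 2. With 2 arrays in AKRxFVB F1 their deviations mirror each other, so these correlations cannot decide whether the numbers pair arrays. Rgs18 1420398_at also reversed after quantile normalization (0.031) and with array weights (0.077). Without AKRxFVB F1 array 1 and DBAxFVB F1 array 3 together, Alox12 1422700_at (-0.11) and Tbxas1 (-0.066) reversed. The member median was -0.09 after quantile and -0.15 after cyclic loess normalization, -0.61 after median centring and -0.20 with array weights, and filters and variance models left it at -0.56. For the gene lists, left-out arrays were tried after the data were seen. Of 33 named list genes, Clec1b (0.19), Gp1bb (0.0067) and Slc4a1 (0.043) reversed without DBAxFVB F1 array 3. The number of arrays, and low values near the array medians for Alox12 1422700_at, limit the precision. Tbxas1 was also dim, at a mean of 4.27, but lay above those medians.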

Other observations

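Reference genes of blood differed in whether they had the array profile of the platelet genes. Ywhaz, a signalling adaptor gene, read 7.82 and 8.81 in AKRxFVB F1 and 8.30, 8.12 and 6.12 in DBAxFVB F1, and B2m, the light chain of class I molecules, read 10.11 and 11.10, then 10.64, 10.47 and 9.001, both in the array order of Rgs18. Hprt, a purine salvage enzyme gene, read 4.81 and 4.25, then 3.31, 3.17 and 3.72, with its highest value on AKRxFVB F1 array 1, where the platelet genes were low. None of the 6 tested housekeeping genes passed the limma test (smallest adjusted p = 0.195). All 6 were lower in DBAxFVB F1, against 43.2% of all tested, with a median of -0.73. An unadjusted limma p below 0.05 was seen for 3, against 10.4% of all tested. All 6 stayed lower with any 1 array left out, and the median was -0.53 without DBAxFVB F1 array 3. The list's median level was 6.72. Over tested probe sets the median difference was -0.44 at a mean of 6 to 8, and 0.07 at 3 to 4, where Hprt lay. The part of level in the housekeeping differences was not tested. Ywhaz, B2m and Hprt were singled out after their values were seen.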
